A study of Drosophila melanogaster with 4 samples.

Results

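The CPR genes of Drosophila melanogaster encode the largest family of structural cuticle proteins, and the binding of Doublesex near them was examined in prepupae. The set was defined by name alone, as protein-coding genes whose symbol starts with Cpr followed by digits, and held 70 of the 13968 protein-coding genes on the chromosome arms. The 4 samples came from intact prepupae, males and females together, with a labelled age of 24 h and from a transgenic line with green fluorescent protein (eGFP) at the C terminus of dsx. Chromatin immunoprecipitation and sequencing (ChIP-seq) used an antibody against the tag. The labels call them 4 biological replicates of 1 group, so no conditions were compared, and do not say whether they came from separate cultures, so the spread may be partly technical. Males and females were pooled, so no value can be assigned to a sex or to the male or female isoform.

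CPR proteins share the chitin-binding domain known as the Rebers and Riddiford consensus and are secreted by the epidermis, where they form the cuticle together with chitin fibres. Different members are used in larval, pupal and adult cuticle, and many are switched on in short pulses around each moult under the control of ecdysone and the nuclear receptors it induces. Doublesex is the last transcription factor of the sex determination cascade and gives many cells of the body their male or female character. Parts of the adult cuticle, such as the genitalia and the abdominal plates, differ between the sexes.

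The authors deposited 30000 peak summits for every replicate, ranked here by their signal value for each peak. A pooled list of 30000 summits and a reproducible list of 9154 summits were made from replicates 2, 3 and 4, per the deposited notes, and the reproducible summits were the 9154 strongest of the pooled list. A gene is called bound here if the gene itself, or the 1000 bp on either side of one of its transcript starts, held a reproducible summit. Depth was unknown because the lists hold no read counts, and signal values are not comparable between lists, so ranks within a list are compared.

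A smaller share of CPR genes than of all genes had a reproducible Doublesex summit. The 8 bound members were Cpr72Eb, Cpr97Ea, Cpr72Ea, Cpr51A, Cpr92F, Cpr47Ec, Cpr62Ba and Cpr73D, which is 11.4% of the 70 members (95% exact binomial interval 5.07 to 21.3, counting error only). Among all protein-coding genes 28.9% were bound. Another 15 members had a summit in the pooled list only, 4 (Cpr23B, Cpr30F, Cpr47Ea and Cpr47Eg) had one in 1 replicate list only, and 43 (61.4%, 95% exact interval 49.0 to 72.8) had none in any of the 6 lists. Of all genes 39.4% had none, and weighted to the members' lengths 49.0%. Counting only summits within 1000 bp of a start, 6 members (8.57%) were bound, against 26.2% of all genes. In the pooled list the members' count, with the 8 bound ones, was 23 (32.9%), against 43.9% of all genes. Because the reproducible summits are part of the pooled list, a pooled summit only was more common among members than among all genes.

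The length of the genes moved with these shares. CPR genes are short, with a median of 1093.5 bp against 2164.5 bp for all genes, and over 10 length classes of about equal size the bound share of all genes was 65.9% among the longest genes and 10.7% among the shortest. Weighted to the members' length classes, the bound share of all genes was 19.9%, or 14.0 genes of 70, against the 8 members found. That value lies inside the members' interval. Counting starts only, the weighted share was 18.9%, above the members' interval of 3.21 to 17.7. In the pooled list 32.9% of members had a summit (22.1 to 45.1), against a weighted share of 34.7%, inside the interval. The members' share was thus below the weighted share in each of these settings. Whether the weighted share lay inside the members' interval depended on the list and the distance. The intervals take the members as independent, which neighbours in a cluster are not. The bound members had a median length of 2952 bp, against 996.5 bp for the 62 others. Of 7 members longer than 5000 bp, 2 were bound. Among all genes the bound share was 37.2% from 4033 to 6468 bp, 49.5% from 6472 to 14703 bp and 65.9% in the longest class.

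The share of members was also below that of all genes in each replicate. Among the strongest 10000 summits of a replicate, 8 members (11.4%) had one in replicate 1, against 32.1% of all genes, and 10 members (14.3%) in replicate 2, against 33.6%. In replicate 3 there were 9 members (12.9%), against 30.6% of all genes, and in replicate 4 there were 8 (11.4%), against 30.6%. The mean was 12.5% ± 1.37 (SD, n = 4) of members and 31.7% ± 1.46 (SD, n = 4) of all genes. The members' share was lower in 4 of 4 replicates, by a mean difference of -19.2 ± 1.20 percentage points (SD, n = 4). In an exact two-sided sign-flip permutation test, 2 of 16 sign patterns were as far from 0 as the data, the fewest possible with 4 replicates, so this design cannot reach a p under 0.05. Weighted to the members' lengths, all genes averaged 22.2% ± 1.5 (SD, n = 4). The weighted share was above the members' interval in replicate 1 (22.3%, against 5.07 to 21.3) and inside it in replicates 2, 3 and 4.

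**Figure D1:**
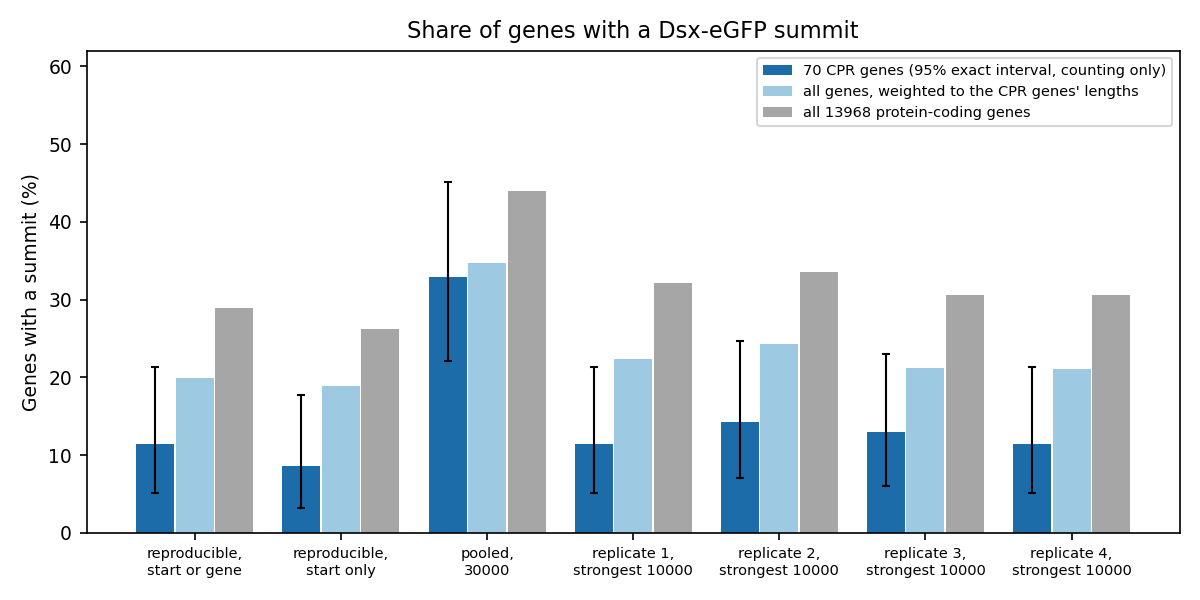
Percent of genes with a summit, for the 70 CPR genes (dark bars, 95% exact binomial intervals for counting error), all genes weighted to the CPR genes' lengths (light bars) and all 13968 protein-coding genes (grey bars), in 7 settings of list and distance. The dark bars lie below the grey ones in every setting shown, and the pooled list has the smallest gap to the light bar, 32.9% against 34.7%.

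The summits at CPR genes were also weak for reproducible ones. The 10 distinct reproducible summits at members had a median signal value of 292.15, against 463.19 for all 9154, and ranked between 916 and 9140. The best summit of a bound member had a median rank of 6680.5, against 3130 over all 4035 bound genes. These best ranks were not weighted for gene length. Bound genes held up to 36 reproducible summits and bound members up to 2, with a median of 1 in both. When the strongest 4577 summits were used, Cpr72Eb and Cpr97Ea were the only bound members (2.86%, 95% exact interval 0.348 to 9.94), against 18.5% of all genes and 12.1% weighted to the members' lengths. The members' sequence held 4.34 reproducible summits per 100 kb (gene bodies and 1000 bp on either side of starts), against 7.58 for all genes. For the pooled list it was 18.2 per 100 kb of member sequence, against 23.4 for all genes.

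All 4 replicates placed a summit among their strongest 10000 no more than 100 bp from 2 of the 10 member summits, against 53.2% of all reproducible summits. These 2 were the strongest at Cpr72Eb and at Cpr97Ea. The 53.2% covers summits of all ranks, while the 10 member summits had a median rank of 7937.5, so the comparison is not at like rank. Cpr97Ea and Cpr62Ba had 2 of the 10 summits each. Replicate 1 is the only sample outside the inputs of the reproducible list.

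The strongest summits at members lay in the small cluster at band 72E and in Cpr97Ea. Around these and the summit at Cpr92F the reference sequence (RefSeq, dm6, plus strand, 50 bases on each side of the summit, 5′ to 3′) is given because these are the 3 strongest member summits and the only one with the Doublesex core. The windows are chr3L:16364333-16364433 for Cpr72Eb, chr3L:16362293-16362393 for Cpr72Ea, chr3R:27084785-27084885 for the intron of Cpr97Ea and chr3R:20669299-20669399 for Cpr92F. Capitals mark ACAATGT, which stands at the centre of Doublesex's known binding sequence, and GAGAG, the word bound by the GAGA factor, each in either strand's spelling.
Cpr72Eb: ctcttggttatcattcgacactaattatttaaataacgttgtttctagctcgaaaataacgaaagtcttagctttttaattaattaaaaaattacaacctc
Cpr72Ea: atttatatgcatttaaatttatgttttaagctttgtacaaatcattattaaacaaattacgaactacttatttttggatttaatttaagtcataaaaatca
Cpr97Ea: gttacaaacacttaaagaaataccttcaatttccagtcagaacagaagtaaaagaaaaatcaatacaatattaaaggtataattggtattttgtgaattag
Cpr92F: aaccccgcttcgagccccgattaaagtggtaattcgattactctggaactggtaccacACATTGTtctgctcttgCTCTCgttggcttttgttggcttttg
Capitals appear only in the window of Cpr92F, where ACATTGT is the core read on the other strand and CTCTC is GAGAG read on the other strand. The windows of Cpr72Eb, Cpr97Ea and Cpr72Ea are rich in A and T, with 26.7%, 25.7% and 17.8% G and C. Over the 10 member summits the median was 28.7%, against 37.6% over all reproducible summits.

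Cpr72Eb (FBgn0036618, 3L 16364899 to 16365707, plus strand) had the strongest summit among the genes named Cpr. It lay at 3L 16364383, 516 bp upstream of the start in the intergenic space behind Cpr72Ea, with a signal value of 1424 and rank 916. The nearest summit of replicates 1 to 4 ranked 645, 858, 1025 and 1330, at most 43 bp away, so all 4 replicates placed it high.

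Its neighbour Cpr72Ea (FBgn0036617, 3L 16362603 to 16363750, plus strand) had a summit 260 bp upstream of its start (3L 16362343, signal value 438.6, rank 4917). Replicates 2, 3 and 4 ranked it 6401, 2876 and 4329, and the closest summit of replicate 1 was 119 bp away at rank 9696. The third gene of the group, Cpr72Ec, had no summit in any list, and its start was 2957 bp from the nearest reproducible summit. The cluster of 6.74 kb held 2 reproducible summits. Windows of that length tiled over the large arms had a median of 0, and 95.1% of them held 2 or fewer.

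Cpr97Ea (FBgn0039480, 3R 27083130 to 27087778, minus strand) had its stronger summit in an intron, 1784 bp downstream of the nearest of its starts (3R 27084835, signal value 623.4, rank 3102). It ranked 5872, 2259, 3771 and 4353 in replicates 1 to 4, within 72 bp in each. A second summit 604 bp upstream of the gene (3R 27088382, 283.4, rank 8199) was less well placed by the replicates. Replicates 1 and 3 had a summit within 100 bp at ranks 14667 and 18899, and the closest summits of replicates 2 and 4 were 123 and 106 bp away at ranks 10551 and 6775. Its neighbour Cpr97Eb had no reproducible summit within reach, the nearest being 1319 bp from its start, which is the closest of any unbound member. Among members bound through their start alone, the farthest summit was that of Cpr47Ec at 917 bp.

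Cpr92F (FBgn0038819, 3R 20669571 to 20672821, plus strand) carried the only member summit with the core. The summit lay 222 bp upstream of the start (3R 20669349, signal value 292.5, rank 7927), the closest of the 10 to a start. Its ranks were 15096, 6926, 9362 and 7546 in replicates 1 to 4, within 17 bp in each, with replicate 1 the lowest. Over all reproducible summits ACAATGT was within 50 bp of 8.06%, so 1 of 10 is near that background. The longer degenerate Doublesex consensus was at none of the 10, against 6.07% of all reproducible summits, and ACAAAGT at none, against 6.84%, but with 10 summits a lower share could not be detected. GAGAG was at 2 of the 10 (Cpr92F and a summit in Cpr62Ba), against 15.4%. These shares cover reproducible summits of all ranks, so the comparisons are not at like rank. Over the 30000 pooled summits they were lower, at 4.78% for ACAATGT, 3.5% for the consensus, 4.68% for ACAAAGT and 14.3% for GAGAG.

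At Cpr51A, Cpr47Ec and Cpr73D the summit lay away from the gene's own start. In Cpr51A (FBgn0033942, 2R 14512559 to 14515211, minus strand) it was 1429 bp into the gene and 248 bp upstream of the start of CG30197, which overlaps it (2R 14513782, signal value 402.5, rank 5434). Replicates 2, 3 and 4 ranked it 4687, 4291 and 4436, and replicate 1 had no summit closer than 274 bp. Without summits whose nearest protein-coding start is that of another gene, Cpr51A would not count, and 7 members would be bound.

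The summit of Cpr47Ec (FBgn0033600, 2R 11259106 to 11259976, minus strand) was 47 bp beyond the end of the gene and 917 bp from its start (2R 11259059, signal value 291.8, rank 7948). Its ranks were 6814, 8037, 8501 and 14768 in replicates 1 to 4. Cpr73D (FBgn0036680, 3L 16939100 to 16957689, minus strand), the longest member at 18590 bp, had an intronic summit 1454 bp downstream of the nearest of its starts (3L 16941495, signal value 255.7, rank 9140). It ranked 17695, 11181, 8261 and 10588 in replicates 1 to 4, so only replicate 3 placed it among its strongest 10000. In this gene 48.9% of words of 31 bases occur more than once on the arms, but none in the 431 bp around the summit.

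Cpr62Ba (FBgn0035279, 3L 1824129 to 1831783, minus strand) had 2 intronic summits on either side of its inner start. The first lay 735 bp upstream of that start (3L 1829677, signal value 280.7, rank 8295) and ranked 14228, 6607, 9419 and 10919 in replicates 1 to 4. The second lay 821 bp downstream (3L 1828121, 270.5, rank 8640) and ranked 9308, 10280, 6587 and 20447. Each was among the strongest 10000 of 2 replicates. The other genes of that cluster, Cpr62Bb and Cpr62Bc, had no summit in any list.

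**Figure D2:**
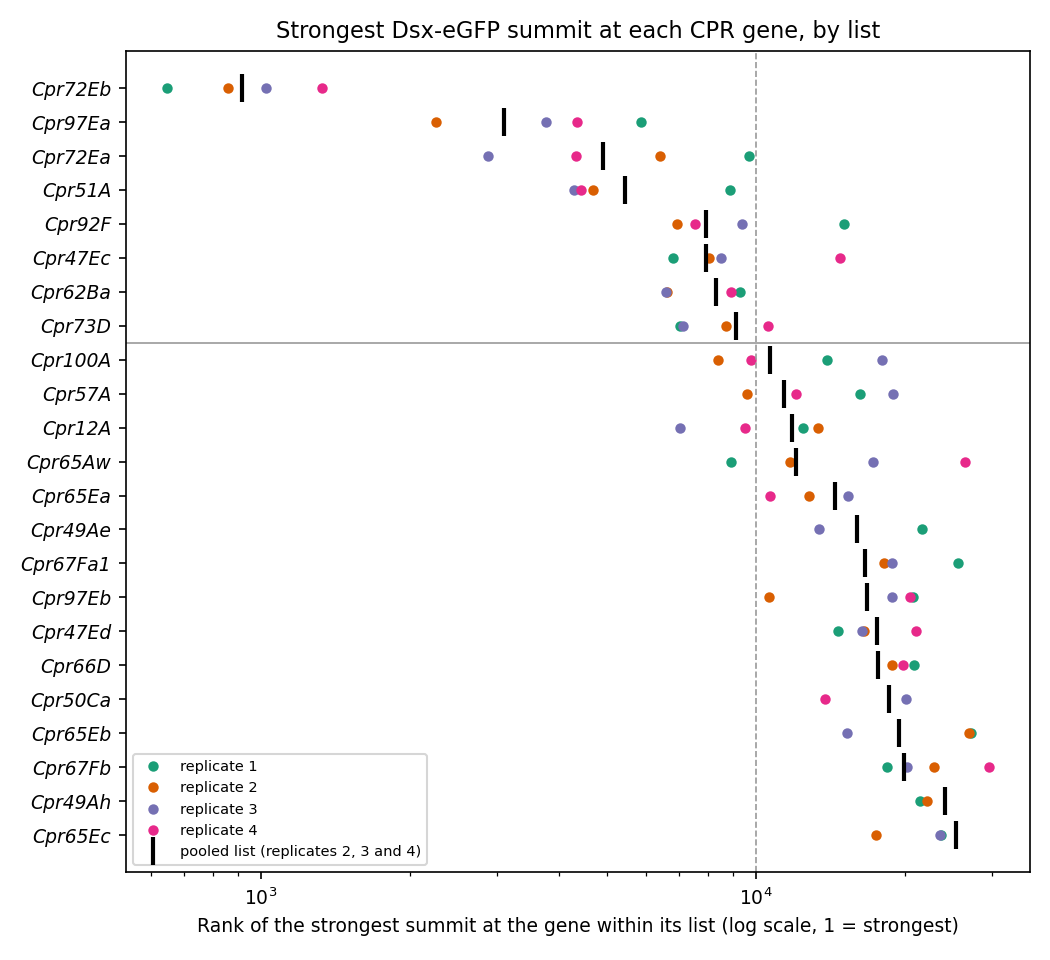
Rank of the strongest summit at each of the 23 CPR genes with a pooled-list summit (log axis, 1 = strongest), in each replicate (coloured points) and in the pooled list (black bars); the points of a gene need not be the same position, and a missing point means no summit in that replicate's list. The 8 genes above the horizontal line had a reproducible summit, and the dashed line marks rank 10000. Cpr72Eb stands apart, with ranks of 645 to 1330 in the 4 replicates.

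Below the reproducible summits came 15 members with weaker pooled summits, whose best ranks ran from 10684 to 25354. Over all 23 members with a pooled summit the median best rank was 12035, against 5849 for the 6132 genes with one, without weighting for gene length. Cpr100A came first, its summit lying 31 bp before the start (pooled signal value 218.3, rank 10684). Its best ranks in replicates 1 to 4 were 13916, 8384, 17968 and 9782, so replicates 2 and 4 placed it among their strongest 10000. Cpr57A followed with a summit 22 bp downstream of its start, which cannot be assigned to Cpr57A alone because the annotation gives Obp57d the same gene coordinates (204.3, rank 11392; best ranks 16276, 9597, 18930 and 12082). Cpr12A, the only X-linked member with a pooled summit, had it 300 bp upstream (196.4, rank 11827; best ranks 12458, 13347, 7029 and 9508).

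The best ranks differed between replicates at these genes, as they did at several bound members. Cpr65Aw (192.5, rank 12035) had best ranks of 8891, 11707, 17280 and 26519 in replicates 1 to 4, and Cpr47Ed (121.8, rank 17551) had 14672, 16543, 16382 and 21027. Cpr97Eb (128.9, rank 16782) had 20760, 10617, 18830 and 20531. Cpr65Ea (155.8, rank 14449), Cpr67Fa1 (130.6, rank 16584) and Cpr66D (120.6, rank 17686) had a summit in 3 replicate lists each, and Cpr49Ae (136.7, rank 16026) in 2. Of the 15, 7 had a summit in all 4 replicate lists, and the matching share over all genes is not given here.

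**Figure D3:**
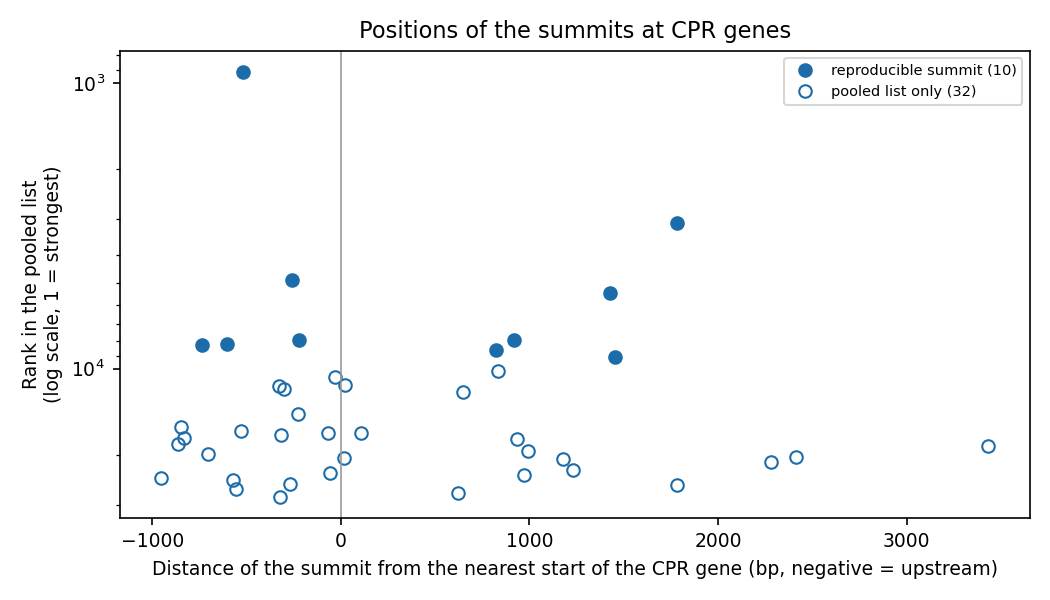
Distance of each of the 42 pooled-list summits at CPR genes from the nearest start of that gene (x axis, bp, negative is upstream) against rank in the pooled list (log axis, strongest at the top). Filled points are the 10 reproducible summits, 5 upstream and 5 downstream of the start, and the highest is that of Cpr72Eb at 516 bp upstream.

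Most CPR genes stand in clusters, and binding was scattered among these. Linking members whose starts lay within 20 kb gave 34 groups, of which 10 had 3 or more members and 23 were single genes. The 8 bound members fell in 7 groups, with 4 of the 45 members of the larger clusters and 3 of the 23 single genes bound. Of all genes 28.9% were bound, and these counts were not weighted for gene length. In the cluster at 47E only Cpr47Ec of 7 members was bound, and at 62B only Cpr62Ba of 3. Members of a cluster share their surroundings and are not independent. By arm, 0 of 5 members were bound on 2L, 2 of 21 on 2R, 4 of 35 on 3L, 2 of 5 on 3R and 0 of 4 on X, where 25.7%, 27.9%, 30.9%, 29.3% and 31.4% of all genes of these arms were bound.

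The clusters at 64A, 76B and 49A had no reproducible summit. At 49A (8 members in 40.5 kb) the starts lay 24018 to 48877 bp from the nearest reproducible summit, and 36.8% of tiled windows of that length were without one as well. Weak pooled summits were present there at Cpr49Ae and Cpr49Ah. The 4 genes at 76B had no summit in any of the 6 lists over 22.7 kb, which held for 21.6% of windows of that length. The same was true of the 4 genes at 64A over 10.6 kb, against 34.6% of windows.

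In the cluster at 65A (7 members in 32.3 kb) Cpr65Aw was the only member with a summit, in the pooled and replicate lists, and the span held 1 reproducible summit outside the reach of any member. The paralogs Cpr65Ax1 and Cpr65Ax2 are identical to other sequence over 100% of their words of 31 bases, so their lack of summits cannot be told apart from reads that could not be placed. At 65E all 3 genes, Cpr65Ea, Cpr65Eb and Cpr65Ec, had pooled summits but no reproducible one, and the 6 pooled summits in 9.84 kb were at or above the number in 88.7% of windows. At 67F the pooled list had summits at Cpr67Fa1 and Cpr67Fb but none at Cpr67Fa2, and 13.2% and 11.6% of the words of the Cpr67Fa1 and Cpr67Fa2 genes are repeated. None of Cpr78Ca, Cpr78Cb and Cpr78Cc at 78C had a summit in any list.

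**Figure D4:**
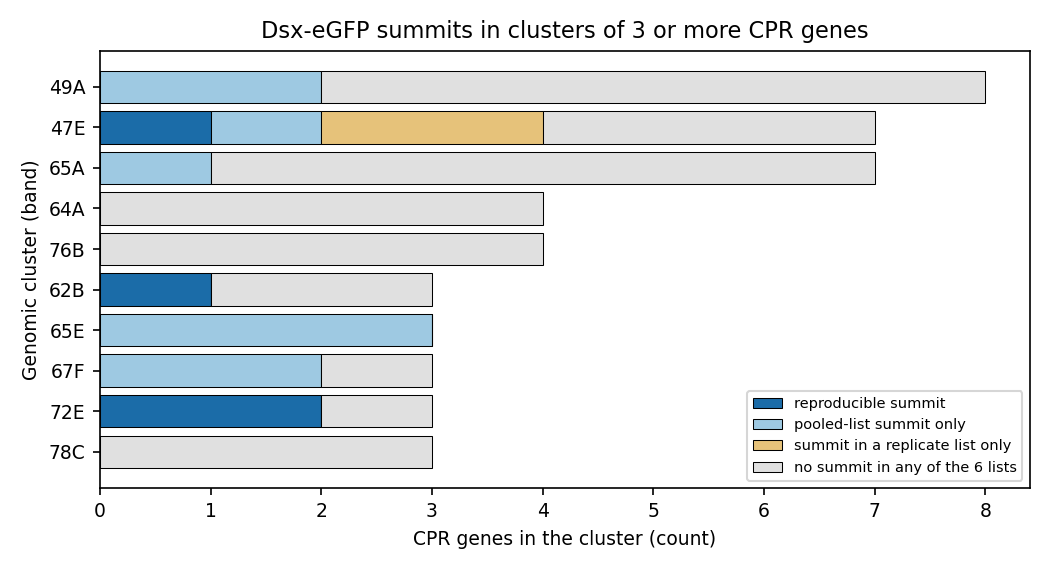
Number of CPR genes in each of the 10 clusters of 3 or more (bars, by band), split by the strongest evidence at each gene: a reproducible summit, a pooled-list summit only, a summit in a replicate list only, or none in the 6 lists. Reproducible summits occur at 2 genes of 72E and 1 gene each of 47E and 62B.

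The single genes without a summit in any list were Cpr30B, Cpr31A, Cpr35B, Cpr50Cb, Cpr56F, Cpr60D, Cpr66Cb, Cpr67B, Cpr78E, Cpr92A, Cpr5C, Cpr11A and Cpr11B. Among them Cpr5C lay 33636 bp and Cpr50Cb 29921 bp from the nearest reproducible summit. Cpr50Ca, a gene of 17888 bp, lay the farthest of all members, at 54783 bp, and had a weak pooled summit only. The median distance from a start to the nearest reproducible summit was 7998 bp for the 70 members and 5761 bp for all genes.

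Many CPR promoters had a feature that the choice of members did not use. TATAAA, the TATA box word, lay on the gene's strand between 40 and 16 bases before the outermost start of 34 of the 70 members (48.6%), against 7.72% of all protein-coding genes. The window was chosen after the values were seen; over the whole promoter, from 250 bases before to 50 after that start, the word was in 48 members (68.6%), against 32.1% of all genes. The cluster at 65E had it at 3 of 3 genes, 47E at 4 of 7 and 76B at 1 of 4. Members of a cluster are not independent, and the shares of all genes with the word were not weighted to the members' lengths. The RefSeq stretch from 45 to 16 bases before the start is shown for the bound gene Cpr72Eb and for 3 unbound genes, with the TATA word in capitals, read along the gene's strand (chr3L:16364854-16364883 for Cpr72Eb, chr3L:7086624-7086653 for Cpr65Ea, chr3L:7093159-7093188 for Cpr65Ec and chr3L:19518348-19518377 for Cpr76Ba; Cpr65Ea and Cpr76Ba are on the minus strand).
Cpr72Eb: taggcgccgccTATAAAaggcagaatcccc
Cpr65Ea: tatcggatcggatcacTATAAAtagtcaat
Cpr65Ec: gattggcgtgccaaaatgcTATAAAtgcca
Cpr76Ba: ccatagaatggccagaagTATAAAagcatt
Of all protein-coding genes with the word at this place 132 of 1078 were bound (12.2%), against 3903 of 12890 (30.3%) without it. Among members 2 of 34 with it were bound (5.88%, Cpr51A and Cpr72Eb), against 6 of 36 without it (16.7%). Genes with the word were also shorter, with a median of 1124 bp against 2272 bp without it. Weighted to both length class and presence of the word, the bound share of all genes was 16.7%, or 11.7 genes of 70, against the 8 members found. The part of promoter type in the members' share was not tested.

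Other genes of cuticle formation were counted in the same way, by role. Of 28 structural genes with other names, mostly of the same family (larval Lcp, pupal Edg and Pcp, and the Ccp84 group), 1 was bound (3.57%, 95% exact interval 0.0904 to 18.3), where 13.4% of genes of these lengths were. It was Lcp9, by a summit inside egg (signal value 1876). None of the 26 Tweedle genes, another family of cuticle proteins, was bound (95% exact interval up to 13.2%, with 16.9% for genes of these lengths). Genes of one family stand in clusters, so these intervals are too narrow.

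Enzymes and assembly factors of chitin had reproducible summits at 11 of 31 genes (35.5%, 95% exact interval 19.2 to 54.6), where 36.4% of genes of these lengths were bound. The strongest were at the chitinase-family genes Cht2 (1564), Cht7 (1268) and Cht11 (857.1) and at mmy (723.9), which encodes the enzyme that makes the sugar donor of chitin synthesis. Regulators of the moulting programme were bound in 18 of 18 cases, where 63.8% of genes of these lengths were. The strongest summits were at EcR (4477), the ecdysone receptor gene, and at Eip78C (3082), Hr4 (2532) and Eip74EF (2495), which encode factors induced by ecdysone. The genes of this list were chosen with earlier results of these data known, and many are long, so the count is not independent evidence.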

How the data were processed

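ChIP-seq peak lists of 4 replicates of 1 group were analysed on dm6, per the deposited notes. The authors' lists give a signal value per peak on each list's own scale and a −log10 q-value, which reaches a ceiling and was not used. The authors' summit positions are printed as 1-based. Per the deposited notes, each replicate was called against 1 control file. Which aligner, caller and cutoff were used is not given in the sources used here. Depth is unknown.

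Summits were assigned to Ensembl release 115 genes with Python 3.11.15 (numpy 2.4.6, pandas 2.3.3, scipy 1.17.1), checked on planted summits. Sequence came from RefSeq's copy of the assembly, and all summits on the arms lay within its lengths. Ranks are by signal value. Intervals are exact (Clopper-Pearson). Length weighting used 10 classes. Repeats are 31-base words found more than once. Every member with a reproducible summit is named, with the 10 best-ranked pooled-only members, members without summits by cluster, and at most 4 bound genes of each of 4 other lists. Members and lists were chosen with earlier results of these data known. Control samples and signal tracks were not analysed here.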

Additional observations from a re-analysis of the deposited data

Results flagged for a closer look

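The strongest summit at Cpr51A ranked 8855 in replicate 1, against 4687, 4291 and 4436 in replicates 2, 3 and 4. Replicate 1 stood apart by Dixon's ratio (0.913). Its list had no summit within 100 bp of the reproducible summit in this gene, and the cause was not tested. This was 1 of 18 measures checked, and chance alone flags about 1 group in 20.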

How the results depend on the processing

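The number of bound members depended on the list more than on the distance. It was 23 with the pooled list and 2 with the strongest 4577 reproducible summits, against 8, and the distinct summits numbered 42 and 2, against 10. The ratio of the members' share to that of all genes was 0.396, 0.573 against genes of the same length classes, 0.748 with the pooled list and 0.155 with the strongest 4577; the cause was not tested. There were 6 bound members at 500 bp (26.6% of all genes bound), 12 at 2000 bp (33.4%), 6 with starts only (26.2%), 8 without secondary summits (28.8%) and 7 where the nearest start had to be the gene's own (22.1%). Those at 500 bp did not include Cpr47Ec or Cpr72Eb, whose strong summit lies 516 bp from its start. Per replicate, 4.29% of members (20.1% of all genes) had a summit among the strongest 5000, 30.4% (47.5%) among all 30000 and 12.5% (31.7%) among the strongest 10000, and leaving out each replicate gave 11.9% to 12.9%. Member summits held by all 4 replicates numbered 1 at 50 bp, 1 among the strongest 5000 and 7 among all 30000, against 2. The share of all reproducible summits at these other settings is not given here, so these counts cannot be read as particular to members. The other alternatives kept their values within 1.5 times. No paired analysis was possible because the series has 1 group. Unknown depth, 70 members and 10 summits limit what differences could be detected.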

Other observations

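Other words were looked for in the 300 bases of promoter. ACAATGT, in either strand, was in the promoters of 6 of 70 members (8.57%), against 4.62% of all genes; these were Cpr23B, Cpr49Af, Cpr65Az, Cpr92F, Cpr97Ea and Cpr5C. Of these 6, Cpr92F and Cpr97Ea were bound, and Cpr97Ea had the word away from its summits. GAGAG was in 23 members (32.9%), against 29.7% of all genes. AAGGTCA, the core of many nuclear receptor sites including that of the moulting regulator Ftz-f1, was in 0 of 70 members, against 2.11% of all genes; with 70 genes this share is too low to show an absence.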
